A study of Oryza sativa with 6 samples.

Results

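miR1425 and miR1432 are young plant microRNA families known from rice. They were followed in small RNA of germinating seeds of the cultivar Kasalath kept at 35 °C ("hot") or at 25 °C ("normal"), with 3 libraries at each temperature. The members are all names of the deposited table that carry either family number directly after "mir", which gave 5 of 641 names. There are 2 names of miR1425 (mir1425-5p and mir1425-3p) and 3 of miR1432 (mir1432-5p, mir1432-3p and mir1432, which carries no arm). The labels name no mutant allele and no chemical for either group, and give the stage of both as 5 days after germination. The labels' protocols describe 40 seeds in dishes of 5 lined with wet tissue, of which 4 dishes stood in an incubator at 35 °C and 4 in the laboratory at 25 °C. The dishes at 25 °C were also covered with a small cardboard box, so the place and the cover of the dishes differed along with the temperature and cannot be told apart from it. The sources used here do not say which dishes went into which library, so p-values measure the spread between these libraries. No messenger RNA was measured, so the tissue label was not checked against marker genes, and fewer cells of a type and less miRNA per cell cannot be told apart.

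A plant microRNA is cut by a Dicer-like enzyme from a hairpin precursor as a duplex of a 5p and a 3p strand, one of which usually stays in an Argonaute protein and directs the cutting of transcripts that pair with it almost fully. miR1425 is known in rice for pairing with transcripts of pentatricopeptide repeat (PPR) proteins, which bind RNA in mitochondria and chloroplasts and include the fertility restorers of cytoplasmic male sterility. miR1432 is known for pairing with transcripts of calcium-binding EF-hand proteins, and in rice also with an acyl-CoA thioesterase transcript that bears on grain filling.

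Each normalised column implies a library total, which was 157488 to 243859 in the hot libraries and 250255 to 275549 in the normal libraries. The sums of the deposited counts were 169694 to 377473 in the hot libraries and 136294 to 203192 in the normal libraries. They exceeded the totals in all 3 hot libraries and were below them in all 3 normal libraries. A single count was worth 4.10 to 6.35 CPM on these totals in the hot libraries and 3.63 to 4.00 in the normal libraries. Levels are given as CPM, the count relative to the size of the library, where the column sum is scaled by TMM, a factor that sets the typical name equal between libraries. They are also given as total-scaled CPM, where the deposited library total takes the place of the scaled column sum. The median log2 fold change over the 253 names tested was 0.01 with TMM and 0.99 with the library totals, so the same counts read lower in hot libraries with TMM than with the totals. No length correction was made between names.

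The balance between the families separated the hot from the normal libraries without overlap, on a measure that needs no scaling. How many other pairs of families or names would separate the groups was not counted. For single names in CPM, the hot libraries were all above the normal ones for 13.4% of 641 and all below for 16.8%. miR1425 and miR1432 had similar summed counts in the hot libraries, while miR1425 exceeded miR1432 in the normal libraries. The miR1425 sum was 15, 52 and 30 counts in hot libraries 1 to 3, against 41, 41 and 54 counts in normal libraries 1 to 3. The miR1432 sum was 15, 33 and 39 counts in the hot libraries, against 4, 6 and 18 counts in the normal libraries. miR1425 thus made up 50.0%, 61.2% and 43.5% of the counts of both families in the hot libraries, against 91.1%, 87.2% and 75.0% in the normal libraries, with no overlap. The log2 ratio of miR1425 over miR1432, with 0.5 added to each sum, was 0.09 ± 0.52 in the hot libraries and 2.48 ± 0.84 in the normal libraries (SD, n = 3 each). Its difference, hot minus normal, was -2.39 (exact two-sided permutation test, p = 0.1, adjusted p = 0.133 over the 4 ratios tested). With 3 libraries against 3 the smallest p this test can give is 0.1, so it cannot pass 0.05. The difference lay between -2.85 and -2.02 when any one library was left out.

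The same ratio between the 5p names alone, added after the data were seen, also separated the groups. This ratio leaves out mir1432, which may count some of the same reads as mir1432-5p in the family sum. It was 0.48 ± 0.53 on the log2 scale in the hot libraries and 2.65 ± 0.75 in the normal libraries (SD, n = 3 each). The difference was -2.17 (exact two-sided permutation test, p = 0.1, adjusted p = 0.133). Normal library 3 lay nearest to the hot libraries in both ratios.

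**Figure D1:**
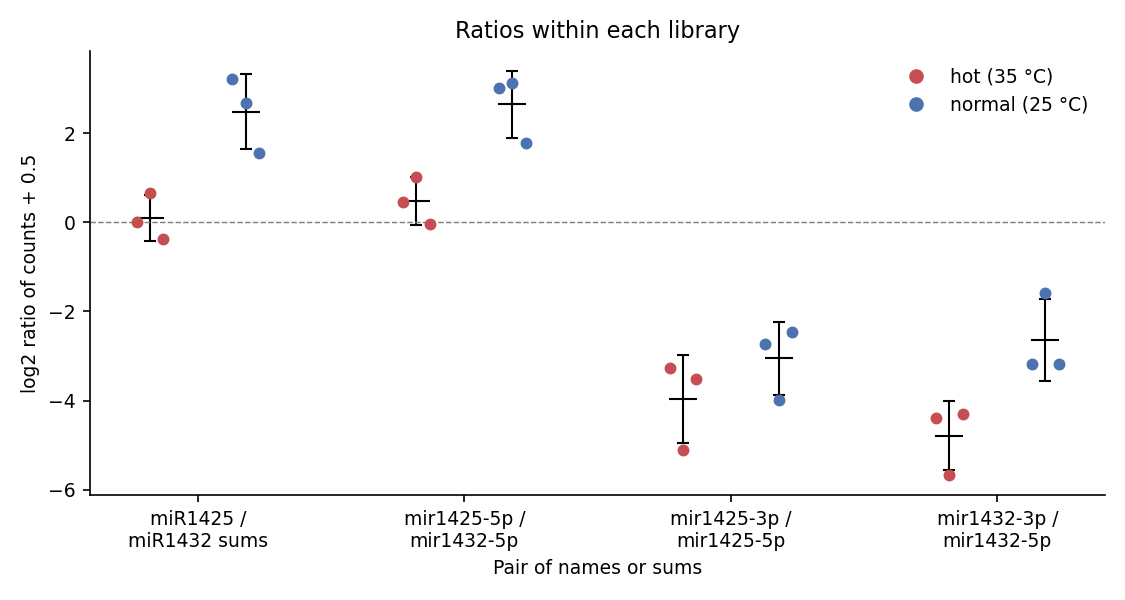
Log2 ratios of counts, each with 0.5 added, within each hot (35 °C) and normal (25 °C) library for pairs of family sums or names, with bars for the mean and SD (n = 3). The 3 hot libraries sit near 0 for miR1425 over miR1432 (mean 0.09) and the 3 normal libraries above them (mean 2.48), while the arm ratio of miR1425 overlaps between groups.

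mir1425-5p, the more abundant strand of the PPR-directed family, had 14, 51 and 28 counts in hot libraries 1 to 3, against 36, 39 and 46 counts in normal libraries 1 to 3. In CPM it had 89.3, 164 and 76.4 in the hot libraries, against 252, 273 and 199 in the normal libraries. All 3 hot libraries were below all 3 normal libraries on this scale, and hot library 2 was the highest of its group. The mean was 110 ± 47.1 CPM in the hot libraries and 241 ± 38.6 CPM in the normal libraries (SD, n = 3 each). The fitted log2 fold change was -1.12 (SE 0.37), which did not pass the threshold of 0.05 (edgeR's quasi-likelihood test, adjusted p = 0.071). In total-scaled CPM the groups overlapped, with 88.9, 212.1 and 115 in the hot libraries against 136.3, 155.8 and 166.9 in the normal libraries. The log2 fold change was then -0.13 (SE 0.46, adjusted p = 0.808 by edgeR's quasi-likelihood test). Relative to the median of all tested names it was -1.13 with either scaling. Without hot library 2 the value was -1.61 and passed (adjusted p = 0.0262 in edgeR's test), in a fit that called 51 names. With column sums without composition factors it was -1.27 and passed as well (adjusted p = 0.0411). That setting called 77 of the 253 names, against 58 with TMM. Without the miR156 names the log2 fold change of mir1425-5p was -0.62 and did not pass (adjusted p = 0.394 in edgeR's test).

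mir1425-3p, the other strand, was rare. It had 1, 1 and 2 counts in the hot libraries, against 5, 2 and 8 counts in the normal libraries. In CPM the groups did not overlap, with 3.21 to 6.38 in the hot libraries and 14.0 to 35.1 in the normal libraries. In total-scaled CPM they met, with 4.16 to 8.20 in the hot libraries and 7.99 to 29.0 in the normal libraries. The summed counts, 4 in the hot and 15 in the normal libraries, gave a ratio of 0.165 after TMM scaling (exact binomial 95% interval 0.0399 to 0.518) and of 0.328 with the library totals (0.0793 to 1.03). These intervals cover counting error only, not how far libraries differ. The name was under the filter on low counts, and in the fit without the filter its log2 fold change was -2.28 (SE 1.04, adjusted p = 0.227 by edgeR's quasi-likelihood test).

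The 3p strand made up a small part of the miR1425 strands at both temperatures. Its share was 6.67%, 1.92% and 6.67% in the hot libraries, against 12.2%, 4.88% and 14.8% in the normal libraries. Over the summed counts it was 4.12% in the hot libraries (Clopper-Pearson 95% interval 1.13% to 10.2%, 4 of 97 counts) and 11.0% in the normal libraries (6.31% to 17.5%, 15 of 136 counts). The log2 ratio of 3p over 5p was -3.96 ± 0.99 in the hot libraries and -3.05 ± 0.81 in the normal libraries (SD, n = 3 each). The groups overlapped, with a difference of -0.91 (exact two-sided permutation test, p = 0.3, adjusted p = 0.3). Leaving out 1 library moved this difference between -1.37 (without normal library 2) and -0.34 (without hot library 2).

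mir1432-5p, the main strand of the family directed at EF-hand transcripts, had 10, 25 and 29 counts in the hot libraries, against 4, 4 and 13 counts in the normal libraries. In total-scaled CPM it had 63.5, 104 and 119 in the hot libraries, against 15.1, 16.0 and 47.2 in the normal libraries. All hot libraries were above all normal libraries, and normal library 3 stood above the other two of its group. In CPM the groups did not overlap either, with 63.8, 80.2 and 79.2 in the hot libraries against 28.0, 28.0 and 56.1 in the normal libraries. The mean was 74.4 ± 9.21 CPM in the hot libraries and 37.4 ± 16.2 CPM in the normal libraries (SD, n = 3 each). The log2 fold change was 0.95 (SE 0.48), not past the threshold (edgeR's quasi-likelihood test, adjusted p = 0.147). With the library totals it was 1.85 (SE 0.60) and passed (adjusted p = 0.0405 in edgeR's test), in a setting where 32.8% of the tested names were called higher. Relative to the median of all tested names it was 0.94 with TMM and 0.86 with the totals.

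The name mir1432, with no arm, had 5, 8 and 9 counts in the hot libraries, against 0, 1 and 4 counts in the normal libraries. In total-scaled CPM it had 31.7, 33.3 and 36.9 in the hot libraries, against 0, 4.00 and 14.5 in the normal libraries. The hot libraries lay close together and above the normal ones, also in CPM (24.6 to 31.9 in the hot and 0 to 17.3 in the normal libraries). The count of 0 in normal library 1 allows up to 11.4 total-scaled CPM, which is 3 counts. The summed counts, 22 in the hot and 5 in the normal libraries, gave a ratio of 5.42 with the library totals (exact binomial 95% interval 2.001 to 18.3) and of 2.72 with TMM (1.01 to 9.21). In the fit without the filter the log2 fold change was 1.65 (SE 1.06, adjusted p = 0.418 by edgeR's quasi-likelihood test). Leaving out 1 library moved it between 1.16 (without normal library 1) and 2.93 (without normal library 3), not called in any of these fits.

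The counts of mir1432 stayed below those of mir1432-5p in every library, and neither row is a whole multiple of the other. The name mir1432 held 33.3%, 24.2% and 23.7% of the counts of these 2 names in the hot libraries, against 0%, 20.0% and 23.5% in the normal libraries. Over summed counts the share was 25.6% in the hot libraries (Clopper-Pearson 95% interval 16.8% to 36.1%, 22 of 86 counts) and 19.2% in the normal libraries (6.55% to 39.4%, 5 of 26 counts). Library by library the 3 hot shares lay above the 3 normal shares, with the lowest hot share (23.7%) next to the highest normal one (23.5%). The intervals of the summed counts overlap and cover counting error only, and the difference between the groups was not tested. The sources used here do not say whether the 2 names count some of the same reads.

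mir1432-3p was the rarest of the 5 names. It had 0, 0 and 1 counts in the hot libraries, against 0, 1 and 1 counts in the normal libraries. The counts of 0 allow up to 19.0 and 12.5 total-scaled CPM in hot libraries 1 and 2, and up to 11.4 in normal library 1. The ratio of summed counts was 0.615 with the library totals, with an exact binomial 95% interval of 0.0104 to 11.8, so neither a rise nor a fall of this strand was detectable at this depth. The log2 ratio of mir1432-3p over mir1432-5p was -4.79 ± 0.77 in the hot libraries and -2.64 ± 0.92 in the normal libraries (SD, n = 3 each; difference -2.15, exact two-sided permutation test, p = 0.1, adjusted p = 0.133). This ratio rests on 1 count of the 3p strand in the hot and 2 in the normal libraries, so it follows the counts of the 5p strand and the 0.5 added.

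**Figure D2:**
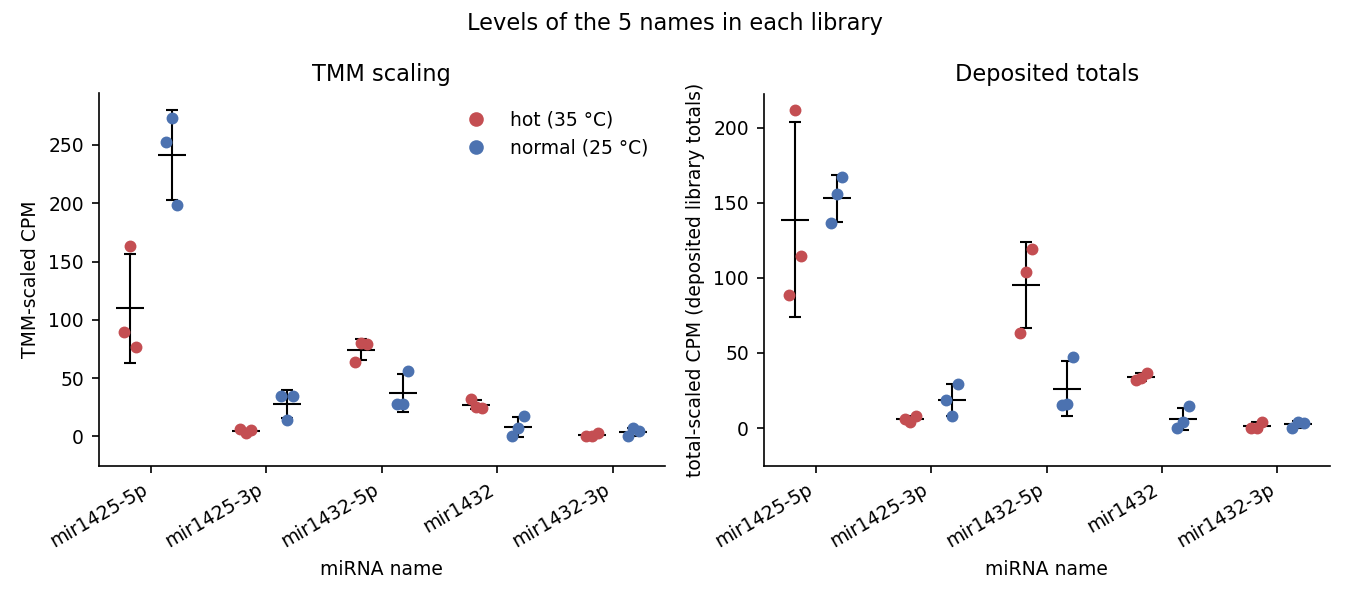
Level of each of the 5 names in the 3 hot (35 °C) and 3 normal (25 °C) libraries, as TMM-scaled CPM and as total-scaled CPM (deposited library totals), with bars for the mean and SD. mir1425-5p averaged 110 CPM in the hot and 241 CPM in the normal libraries but overlapped in total-scaled CPM, while mir1432-5p and mir1432 were higher in all hot libraries on both scales.

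The order of the mean levels was not the same at both temperatures. In the hot libraries the mean CPM of the names ran from mir1425-5p (110) through mir1432-5p (74.4), mir1432 (27.4) and mir1425-3p (5.02) to mir1432-3p (0.91). Of the neighbours in that order only mir1425-5p and mir1432-5p overlapped between libraries, though the last 2 names differ by 1 count in each hot library. In the normal libraries the order was mir1425-5p (241), mir1432-5p (37.4), mir1425-3p (27.9), mir1432 (8.09) and mir1432-3p (3.78). There mir1425-5p stood clear of the next name in every library, and each of the other neighbours overlapped. Among the 641 names mir1425-5p ranked 202 in the hot and 147 in the normal libraries by mean CPM, and mir1432-5p ranked 225 in the hot and 283 in the normal libraries.

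The spread between libraries differed by name and group. For mir1425-5p the coefficient of variation of the CPM was 42.9% in the hot and 16.0% in the normal libraries, where counting alone would give 18.0% and 15.7%. For mir1432-5p it was 12.4% in the hot and 43.3% in the normal libraries, where counting alone would give 21.7% and 37.8%. The median over distinct count patterns of other families within 2-fold of the same mean CPM was 32.4% in the hot and 30.4% in the normal libraries for mir1425-5p. For mir1432-5p that median was 37.6% in the hot and 57.7% in the normal libraries. In total-scaled CPM the coefficient of variation of mir1425-5p was 46.9% in the hot and 10.1% in the normal libraries, and that of mir1432-5p was 30.04% in the hot and 69.9% in the normal libraries. The hot value of mir1432-5p was thus below its counting value in CPM and above it in total-scaled CPM. On both scales hot library 2 was the highest of its group for mir1425-5p, and normal library 3 for mir1432-5p.

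In the fit of all names 2 of the 5 passed the filter on low counts, mir1425-5p and mir1432-5p, and 0 of these 2 were called by edgeR's quasi-likelihood test at adjusted p under 0.05. Of all 253 names tested, 22.9% were called. Unadjusted, 1 of the 2 was under 0.05 in edgeR, mir1425-5p. The share of all names under 0.05 unadjusted was larger than the 22.9% called but was not counted. Among the tested names of the grain size or filling families listed below it was 64 of 102. The 1 of 2 is therefore not read as an excess. The DESeq2 test called 0 of the 2, beside 104 of all 253 names, and limma-voom 0, beside 62 of the 253. Without the filter 0 of the 5 were called in edgeR, 0 in the DESeq2 test and 0 in limma-voom, with 2 of the 5, both miR1425 names, under 0.05 unadjusted in edgeR. In that edgeR fit 10.3% of 641 names were called. The share under 0.05 unadjusted was larger but was not counted, so the 2 of 5 are not read as an excess. mir1425-3p, for one, had an unadjusted p of 0.0482 and an adjusted p of 0.227 in edgeR's test. The shares that the DESeq2 test and limma-voom called without the filter were not counted. The hot libraries were all above the normal ones in total-scaled CPM for mir1432-5p and mir1432, as for 22.6% of 641 names, and in CPM for the same 2, as for 13.4%. They were all below in CPM for mir1425-5p and mir1425-3p, as for 16.8% of names, and for neither in total-scaled CPM, where 2.18% of names were. The groups overlapped for mir1432-3p on both scales.

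**Figure D3:**
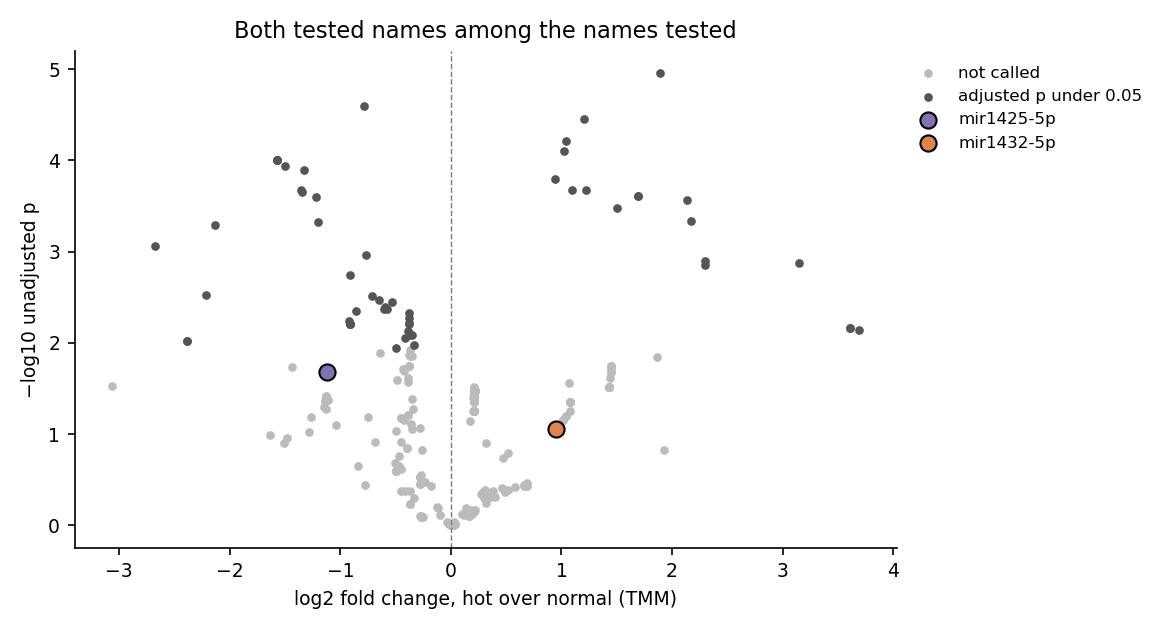
Log2 fold change (hot over normal, TMM scaling) against −log10 of the unadjusted p of edgeR's quasi-likelihood test for the 253 names tested, with the names called at adjusted p under 0.05 in dark grey. mir1425-5p (-1.12) and mir1432-5p (0.95) lie on opposite sides of 0, both among the names not called.

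Summed by family, miR1432 was called higher in the hot libraries and miR1425 did not pass. The miR1432 sum includes mir1432, which may count some of the same reads as mir1432-5p. In the fit of names mir1432-5p alone was not called (log2 fold change 0.95, adjusted p = 0.147 in edgeR's test). The family sums were fitted on their own TMM scale over 32 families, where the median log2 fold change was 0.35. The miR1432 sum was 110, 139 and 146 CPM in the hot libraries, against 27.0, 40.6 and 82.4 CPM in the normal libraries. Its mean was 132 ± 18.8 CPM in the hot libraries and 50.0 ± 28.9 CPM in the normal libraries (SD, n = 3 each). The log2 fold change was 1.36 (SE 0.40, adjusted p = 0.0434 by edgeR), and 21.9% of families were called higher (34.4% in either direction). With the library totals it was 1.89 (SE 0.50, adjusted p = 0.0257 in edgeR's test), where 21.9% of families were called higher as well.

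The miR1432 call was close to the threshold. It was lost in 9 of 16 alternatives, among them the fits without hot library 1 (log2 fold change 1.46, adjusted p = 0.0549), hot library 2 (1.29, 0.147), hot library 3 (1.28, 0.146), normal library 1 (1.07, 0.0781) and normal library 2 (1.23, 0.133), all in edgeR's test. Without normal library 3, the highest of its group, the value was 1.95 (adjusted p = 0.00393). All 16 values were above 0.

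The miR1425 sum was 110, 219 and 112 CPM in the hot libraries, against 277, 277 and 247 CPM in the normal libraries. Its mean was 147 ± 62.4 CPM in the hot libraries and 267 ± 17.2 CPM in the normal libraries (SD, n = 3 each). The groups did not overlap on this scale, and the share of all families without overlap was not counted. The log2 fold change was -0.85 (SE 0.44, adjusted p = 0.202 by edgeR's quasi-likelihood test). With the library totals it was -0.24 (SE 0.51, adjusted p = 0.695), and the groups overlapped. Relative to the median of all families it was -1.20 with both scalings, where miR1432 stood at 1.01 with TMM and 0.94 with the totals. miR1425 passed with the DESeq2 test (-1.02, adjusted p = 0.0352) and with column sums without composition factors in edgeR (-1.36, adjusted p = 0.0412). How many families were called lower in these settings was not counted. Families called higher numbered 6 with the DESeq2 test and 1 with column sums, against 7 in edgeR with TMM.

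**Figure D4:**
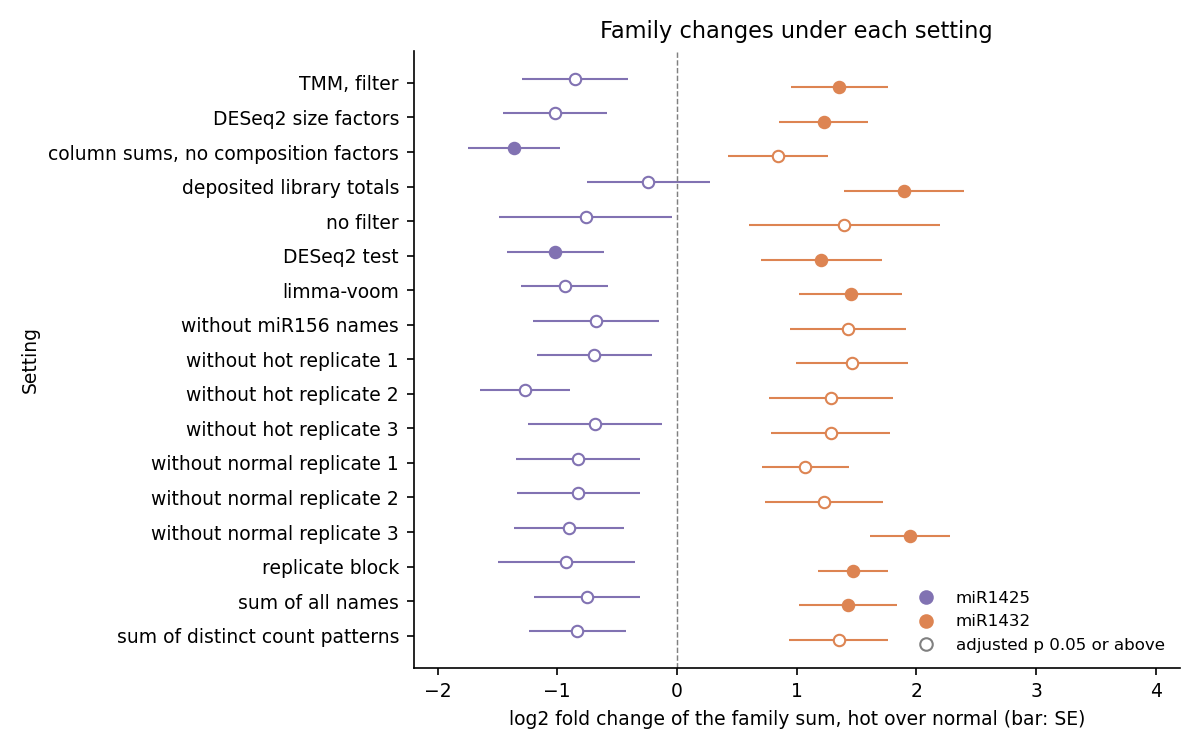
Log2 fold change (hot over normal) of the miR1425 and miR1432 sums under the settings run, with bars for the standard error and filled points where the adjusted p was under 0.05. miR1432 stays above 0 (0.84 to 1.95) and miR1425 below 0 (-1.36 to -0.24), while the calls come and go.

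Among the tested names of other families, those whose pattern over the 6 libraries lay nearest to mir1425-5p were 3 names of miR319, the family that targets TCP transcription factor transcripts. The distance is the root mean square difference of log2 CPM centred on each name's own mean. It was 0.33 for mir319b, mir319a-3p and mir319b-3p, against a median of 0.74 over all tested names. mir319b had 52, 100 and 112 counts in the hot libraries, against 92, 92 and 120 counts in the normal libraries. Nearest to mir1432-5p were mir396a-5p and mir396b-5p (0.29 each), of the family that targets growth-regulating factor transcripts, and mir444a (0.30), of a monocot family that targets MADS-box transcripts. The median distance from mir1432-5p was 0.73. mir396a-5p had 1811, 3581 and 3401 counts in the hot libraries, against 769, 672 and 1302 counts in the normal libraries. mir444a had 17, 59 and 51 counts in the hot libraries, against 10, 5 and 24 counts in the normal libraries. Names of a family can share reads, so the 3 miR319 names are not separate matches. Neither are mir396a-5p and mir396b-5p, whose counts were nearly the same (1760, 3446 and 3268 for mir396b-5p in the hot libraries).

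Of 7 families listed because they are linked to PPR transcripts in some plant, only miR1425 had rows in the table. A list of 9 families shared among grasses or other monocots had 25 names from 5 families there. Of these 8 could be tested, mir1432-5p and 7 names of miR444, which form 5 distinct count patterns. None of the 8 was called by edgeR's quasi-likelihood test with TMM (0 at an unadjusted p under 0.05, 0 with the DESeq2 test, 0 with limma-voom), and their median log2 fold change was 1.01, beside 0.01 over all tested names. With the library totals 6 of the 8 were called higher and 0 lower, with a median of 1.91 beside 0.99, where 32.8% of all tested names were called higher. Those 6 are mir1432-5p and 5 miR444 names from near-identical rows. The 2 other miR444 names, mir444b-1 and mir444c-1, had -0.45 and -0.47 with TMM and 0.47 each with the totals. In a list of 8 families with reported roles in rice grain size or filling, which holds miR1432, 102 of 143 names, in 75 distinct count patterns, could be tested. Of these 17 were called higher and 20 lower in edgeR's test with TMM, with a median of 0.21, where 22.9% of all tested names were called. The DESeq2 test called 71 of the 102, beside 104 of all 253 names tested. limma-voom called 39 of the 102, beside 62 of the 253. With the totals 54 were called higher and 0 lower, with a median of 1.19, where 32.8% of all tested names were called higher. Its most abundant name was mir156a, of the family that targets SPL transcription factor transcripts, and miR1432 gave 1 of its tested names.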

How the data were processed

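Each of the 6 libraries has 2 columns in the deposited table, raw and normalised per the file headers, mapped through the sample descriptions. The raw columns are the authors' read counts for each name. The deposited normalised signal is the count over 1 total per library on a CPM scale, and served only to recover that total (median over names with a count above 20). The sources used here name no matching tool, miRNA database or genome build, and no sequences were used.

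Counts of all names were fitted by the quasi-likelihood test of edgeR 4.0.16 (R 4.3.3, TMM scaling, filterByExpr, quasi-likelihood F test, group only), with Benjamini-Hochberg adjustment over 253 names and a threshold of 0.05. The standard error is the log2 fold change over the square root of F. Family sums add identical rows once and keep rows that are whole multiples of each other, which the sums of distinct count patterns leave out. The miR1425 and miR1432 counts are the same in both. Alternatives used DESeq2 1.42.0 and limma 3.58.1. Within-library ratios, with 0.5 added, were compared by exact two-sided permutation. Only the edgeR fit of names with TMM was run on simulated counts. These drew each name on its own, whereas names in the table can share reads.

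The members and lists were chosen with earlier results of these data known. Further names follow a rule: the 3 nearest patterns of other families per tested member, and of each list the called or most abundant names. mir444b-1 and mir444c-1 were named after their values were seen. The fits without a filter for names under it and the ratio of the 5p names were added after seeing the data. No library was a copy of another of its group (chi-square per degree of freedom 5.128 to 23.2). Because names can share reads, these values may not measure how far the spread exceeds counting error.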

Additional observations from a re-analysis of the deposited data

How the results depend on the processing

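The miR1432 sum kept its direction in all 16 alternatives run. Its call was lost with column sums without composition factors (0.84), without a filter (1.40), without the miR156 names (1.43) and with sums of distinct count patterns (1.35, where the counts of other families change but not those of miR1432), and leaving out 1 library gave 1.07 to 1.95. The miR1425 sum also kept its direction, and passed with column sums (-1.36) and the DESeq2 test (-1.02). The cause of these changes was not tested. Of all names 58 were called, against 31 with DESeq2 size factors, 104 with the DESeq2 test and 26 (without normal library 2) to 120 (without hot library 1) with 1 library left out. Of the families 7 were called higher, against 1 with column sums, 3 without the miR156 names and 2 to 8 with 1 library left out. No alternative turned the sign of a name, a sum or a ratio.

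The replicate numbers did not pair the libraries: deviations from the group means correlated at 0.50, -0.32 and 0.03 for numbers 1 to 3 over 253 names, and of the hot libraries only number 1 matched its own number best. With the replicate number as a block miR1432 had 1.47 (adjusted p = 0.0147), miR1425 -0.93 (adjusted p = 0.311), mir1425-5p -1.19 (called, adjusted p = 0.0372) and mir1432-5p 1.01 (adjusted p = 0.166) in edgeR's test, and 63 names were called. In the paired sign-flip test of the family ratio the difference was -2.39 (exact p = 0.25, the smallest it can give). Depth limits the rare strands most: mir1425-3p and mir1432-3p rest on 19 and 3 counts in all.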
